A study of Mus musculus with 6 samples.

Results

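Collagens, the small proteoglycans that bind them, elastic fibre proteins and the oxidases that crosslink both were followed here as a set of 45 genes of collagen and stromal matrix. The set is a fixed list of names, chosen, as were the other lists below, with earlier results of these data known. A probe was matched by transcript accession for 43 of the 45, and 42 were measured above the filter on dim probes, among 24609 entries (genes, or probes with no gene name) tested in all. Col6a3 and Col12a1 had no matched probe. Col4a3 was well above background on 1 of the 6 arrays and was not tested. The samples were mammary cells of female mice aged 8 weeks on a mixed 129sv/C57Bl6 background. Of these, 3 samples were wild type and 3 were Plk2 -/-, each hybridised to its own array, all on 1 slide. The glands were dissociated into what the labels call primary mammary epithelial cells, with no treatment named, and which stretch of Plk2 was deleted, or in which tissues, is not stated there. The wild-type arrays lay in slide row 1 and the null arrays in slide row 2, and an effect of the row cannot be told apart from one of genotype. Nothing in the labels says whether each sample came from a separate animal, so p-values measure the spread between these samples, which may be technical.

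Fibrillar collagens form the ropes of the stroma, collagen IV forms the sheet of the basement membrane under the epithelium, and collagen VI forms beaded filaments between them. Small leucine-rich proteoglycans such as decorin coat the fibrils and limit their width, and lysyl oxidases crosslink collagen and elastin. In the mammary gland these genes are mostly made by fibroblasts, while collagen IV is also made by myoepithelial and endothelial cells. Plk2 encodes a polo-like serine/threonine kinase.

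Levels are given as log2 of the scanner's processed signal minus the 75th percentile of the array, so that a value of 0 is the level of that percentile and differences are null minus wild type. Probes differ in brightness, so levels are compared between arrays and never between genes. The precision of each value is limited by the number of arrays, 3 in each group. The share of probes well above background was 50.2% to 54.8% over the arrays. The probe for Plk2 had processed signals of 1160 to 1472 in wild type and of 1.87 to 2.44 in null samples, where no array had it well above background. All 42 matrix genes tested were well above background on all 6 arrays, as were all 12 luminal and all 10 basal epithelial markers, so that stromal transcripts were measured together with epithelial ones in every sample. In such bulk samples fewer cells of a type and less RNA per cell cannot be told apart.

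No matrix gene passed an adjusted p of 0.05 (limma, Benjamini-Hochberg over all entries), against 0.565% of all entries in either direction and 0.337% with a lower level in null samples. The lowest adjusted p among them was 0.0578. At an adjusted p under 0.1, 5 matrix genes were lower (Tnxb, Tnc, Loxl2, Col5a3 and Col15a1), against 3.04% of all entries, and 0 were higher, against 3.62%. At an unadjusted p under 0.05, 14 of 42 (33.3%) had a lower level in null samples, against 9.54% of all entries, and 1 had a higher level, against 13.5%. The difference was negative for 33 of the 42 genes (78.6%), against 47.1% of all entries. Its median was -0.37, where the median of all entries was 0.03. For 15 genes (35.7%) every null array lay below every wild-type array, against 12.0% of all entries, and for 1 gene, Fmod, every null array lay above, against 19.6%. The differences ran from -1.35 (Tnc) to 0.55 (Fmod). Leaving out wild-type sample 1 or null sample 2 lowered the count at an unadjusted p under 0.05 from 14 to 8 each time, against 7.14% and 7.42% of all entries. Leaving out an array can only keep or raise the count of genes with null arrays below all wild-type arrays. That count, 15 with all arrays, was 16 to 24, the highest without null sample 3. Scaling on the spike-in controls raised the median of all entries, and each difference, by 0.29 and turned 9 of the 33 negative differences positive. It left 3 genes lower at an unadjusted p under 0.05, against 3.5% of all entries. Either scaling subtracts 1 constant from each array. The median of the matrix genes relative to that of all entries, -0.40, therefore could not change between them and is no check on the result.

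**Figure D1:**
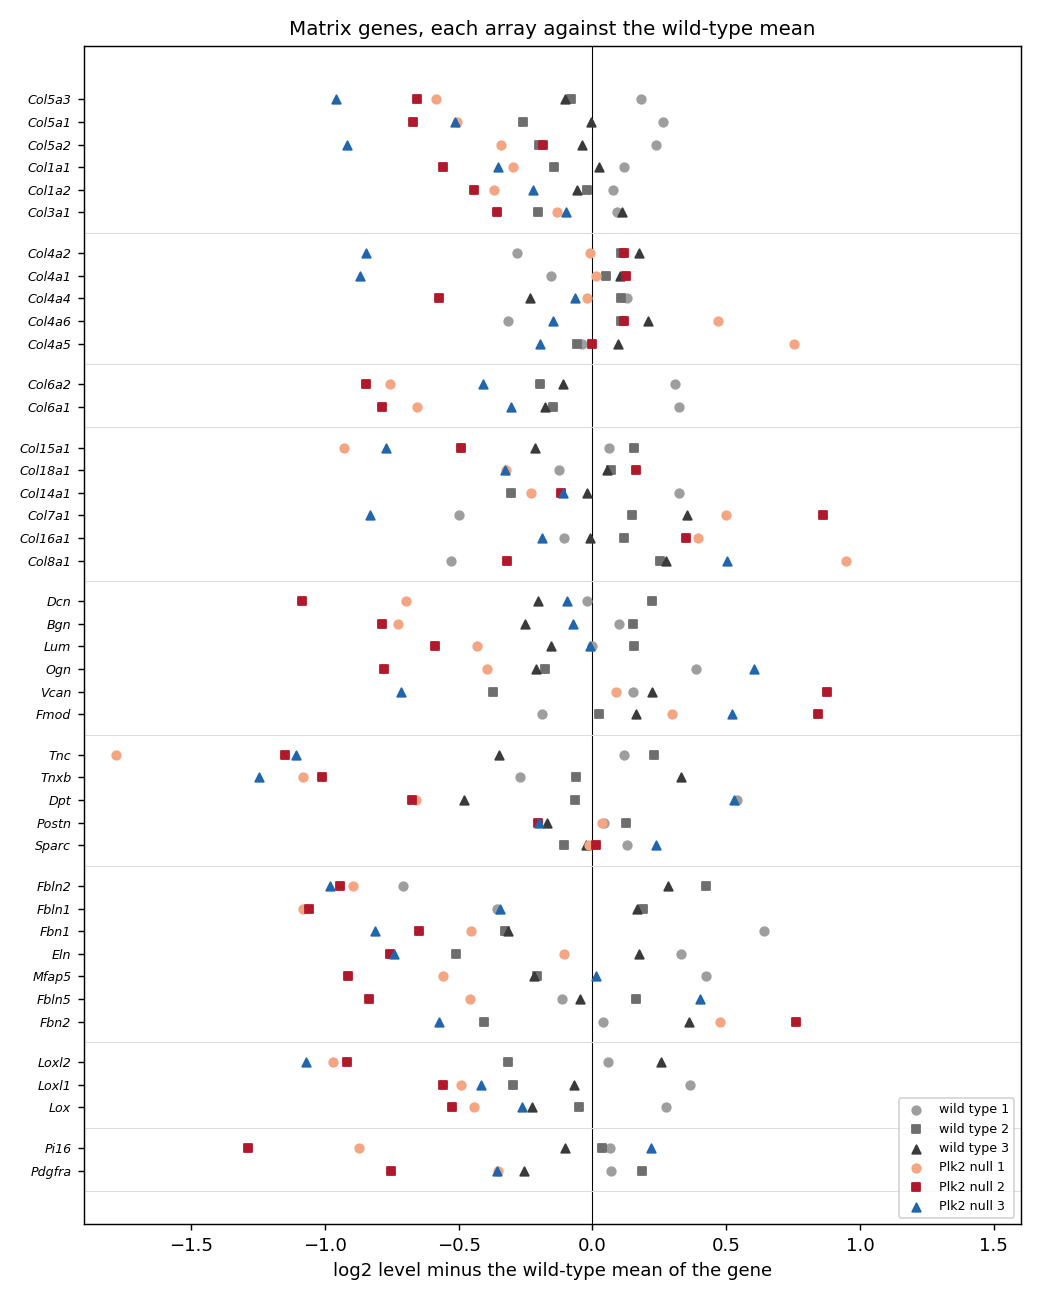
Level of each of the 42 matrix genes on each array (log2, minus the mean of the 3 wild-type arrays of that gene), with wild-type arrays in greys and null arrays in orange, red and blue, grouped by role from fibrillar collagens at the top to stromal markers at the bottom. Most null points lie left of 0, and null sample 3 stands above the wild-type points for Ogn, Fbln5 and Pi16 but far below them for Col4a1 and Col4a2.

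The fibrillar collagen genes all had negative differences, 6 of 6, with a median of -0.44. For 4 of them every null array lay below every wild-type array, against 12.0% of all entries. Col5a3, which encodes a chain of collagen V that nucleates and thins collagen I fibrils, had levels of 4.91, 4.65 and 4.63 in wild-type samples 1, 2 and 3 and of 4.15, 4.07 and 3.77 in null samples 1, 2 and 3. The lowest wild-type array lay 0.48 above the highest null array. Its difference of -0.73 (SE 0.17, a 1.66-fold lower mean) had a limma adjusted p of 0.0887. Col5a1, the collagen V chain found in most tissues, had 4.49, 3.96 and 4.22 in wild type and 3.72, 3.55 and 3.71 in null samples. Every null array was again below every wild-type array, with a difference of -0.56 (SE 0.18, limma adjusted p = 0.138). Col1a1, a chain of the main fibril collagen, had 7.41, 7.15 and 7.32 in wild type and 6.99, 6.73 and 6.94 in null samples. The groups stood apart by less, with a difference of -0.40 (SE 0.15, limma adjusted p = 0.181). Its partner chain Col1a2 differed by -0.34 (SE 0.14), also without overlap. Col5a2 differed by -0.48 and Col3a1, the collagen of fine reticular fibres, by -0.20, with overlapping groups, and the Col3a1 difference was positive with spike-in scaling. The 95% interval for Col3a1 ran from -0.58 to 0.19.

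Collagen VI genes were measured by 2 of 3 chains. Col6a2 had levels of 5.05, 4.54 and 4.63 in wild type and of 3.98, 3.89 and 4.33 in null samples. Col6a1 had 7.08, 6.60 and 6.58 in wild type and 6.10, 5.97 and 6.45 in null samples. In both genes wild-type sample 1 was highest, null sample 2 was lowest and null sample 3 was the null array nearest to wild type. The differences were -0.67 (SE 0.20, limma adjusted p = 0.129) for Col6a2 and -0.58 (SE 0.21, limma adjusted p = 0.170) for Col6a1. Centred on its own mean over the 6 arrays, Col6a1 stayed within 0.11 of Col6a2 on each array.

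Of the 5 collagen IV genes tested, 3 had negative and 2 positive differences. None had an unadjusted p under 0.05, against 23.0% of all entries, and none lacked overlap, against 31.6%, both in either direction. The chains are encoded in head-to-head gene pairs, and the promoter windows of the pairs are shown because the 2 genes of a pair can be set against each other array by array. Each window runs from 250 bases before to 50 bases after the annotated start, 5′ to 3′ on the strand of its gene, from RefSeq on GRCm38.p6. They lie at chr8:11312777-11313076 on the minus strand for Col4a1, chr8:11312555-11312854 on the plus strand for Col4a2, chrX:141475169-141475468 on the plus strand for Col4a5 and chrX:141474027-141474326 on the minus strand for Col4a6. Capitals mark matches, on either strand, to CCAAT (the CCAAT box) and GGGCGG (the GC box).
Col4a1: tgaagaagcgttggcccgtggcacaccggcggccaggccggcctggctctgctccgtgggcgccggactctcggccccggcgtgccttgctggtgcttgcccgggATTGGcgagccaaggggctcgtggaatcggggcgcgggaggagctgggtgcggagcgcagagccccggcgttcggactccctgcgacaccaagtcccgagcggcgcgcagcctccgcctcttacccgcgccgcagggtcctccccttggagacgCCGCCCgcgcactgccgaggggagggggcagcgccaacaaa
Col4a2: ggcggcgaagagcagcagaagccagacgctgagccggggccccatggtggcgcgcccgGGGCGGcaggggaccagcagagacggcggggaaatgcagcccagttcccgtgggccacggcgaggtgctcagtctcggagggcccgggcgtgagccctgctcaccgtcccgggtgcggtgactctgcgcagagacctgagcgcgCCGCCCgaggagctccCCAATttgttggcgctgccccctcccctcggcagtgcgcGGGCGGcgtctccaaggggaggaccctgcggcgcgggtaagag
Col4a5: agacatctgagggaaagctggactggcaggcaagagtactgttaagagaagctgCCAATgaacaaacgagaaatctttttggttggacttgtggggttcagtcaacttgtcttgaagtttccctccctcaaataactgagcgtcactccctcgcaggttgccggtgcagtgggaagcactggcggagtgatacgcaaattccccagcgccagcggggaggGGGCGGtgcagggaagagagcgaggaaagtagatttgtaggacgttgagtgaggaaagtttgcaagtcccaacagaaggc
Col4a6: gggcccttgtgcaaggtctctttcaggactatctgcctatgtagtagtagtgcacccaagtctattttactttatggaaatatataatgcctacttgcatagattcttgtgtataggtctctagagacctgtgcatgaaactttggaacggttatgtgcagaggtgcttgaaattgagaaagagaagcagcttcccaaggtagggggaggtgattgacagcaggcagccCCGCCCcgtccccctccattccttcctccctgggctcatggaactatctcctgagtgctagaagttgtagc
The starts of Col4a1 and Col4a2 lie 21 bases apart, and their windows share 78 bases, at the 3′ end of each. By these coordinates the annotated transcripts of Col4a1 and Col4a2 overlap at their starts. The bases before each start therefore lie inside the partner gene. The starts of Col4a5 and Col4a6 lie 1343 bases apart without such an overlap, and their windows share no bases. A GC box match was found in all 4 windows, against 35.7% of 32851 windows of that length in the table, and a CCAAT match in 3 of 4, against 37.4%. The only GC box match of Col4a1 lies in the shared bases and is the same stretch as 1 of the Col4a2 matches. The bases G and C made up 74.0% of the Col4a1 and 73.7% of the Col4a2 window, against a median of 52.7% over all windows. TATAAA, searched in the same way, was in none of the 4 and in 13.6% of all windows. A total of 38 windows were found for 32 of the 45 genes. Of these 38, 21 (55.3%) held the GC box letters, 13 (34.2%) CCAAT and 6 (15.8%) TATAAA. Their median share of G and C was 57.0%, also above that of all windows. A match is a run of letters and not a measured site, and the arrays did not measure promoters.

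Col4a1, a chain of the main basement membrane network, had levels of 4.71, 4.91 and 4.97 in wild type and of 4.88, 4.99 and 3.99 in null samples. Col4a2, its partner in the trimer, had 4.32, 4.71 and 4.78 in wild type and 4.60, 4.73 and 3.76 in null samples. In both genes null sample 3 was the lowest array, wild-type sample 1 the next lowest, and null samples 1 and 2 lay at wild-type levels. Centred on its own mean over the 6 arrays, Col4a1 stayed within 0.13 of Col4a2 on each array, with null sample 3 at -0.75 and -0.72. The differences were -0.24 (SE 0.28, limma adjusted p = 0.633) and -0.24 (SE 0.29, limma adjusted p = 0.640). Without null sample 3 they were 0.07 and 0.06, and with spike-in scaling they were 0.04 and 0.04. Col4a4, a chain of the network of mature basement membranes such as that of the kidney glomerulus, differed by -0.22 (SE 0.21), from -1.14, -1.16 and -1.50 in wild type to -1.29, -1.84 and -1.33 in null samples, and by 0.07 with spike-in scaling and -0.0436 without null sample 2. Col4a5 differed by 0.19 (SE 0.26) and Col4a6 by 0.15 (SE 0.22), both highest in null sample 1. The gap between Col4a5 and Col4a6 after centring reached 0.26 on one array.

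Among the other collagens the values pointed both ways, 3 negative and 3 positive of 6. Col15a1, a basement membrane zone collagen with heparan and chondroitin sulfate chains, had levels of -0.14, -0.05 and -0.42 in wild type and of -1.13, -0.69 and -0.98 in null samples. The groups did not overlap, and the difference was -0.73 (SE 0.18, a 1.66-fold lower mean, limma adjusted p = 0.0961). Its further kept probe, well above background on 1 of 3 null arrays, gave -0.96. Col16a1, a fibril-associated collagen, had 6.35, 6.57 and 6.45 in wild type and 6.85, 6.81 and 6.27 in null samples, a difference of 0.19 (SE 0.20) with overlap that ran from 0.0816 without null sample 1 and 0.104 without null sample 2 to 0.37 without null sample 3. Col8a1, a short-chain collagen of vessel walls, had -1.89, -1.11 and -1.08 in wild type and -0.41, -1.68 and -0.86 in null samples, a difference of 0.38 (SE 0.38) with overlap. Leaving out 1 array moved it to 0.0916 (null sample 1), 0.112 (wild-type sample 1) or 0.73 (null sample 2). Col7a1, which anchors basal epithelial cells to the stroma, showed the widest spread of the 42 genes in null samples, at 4.51, 4.88 and 3.19 (SD 0.89), against 3.52, 4.16 and 4.37 in wild type. As in Col4a1 and Col4a2, null sample 3 was lowest and wild-type sample 1 next. Col18a1, which carries endostatin, and Col14a1, a collagen on fibril surfaces, differed by -0.16 and -0.15, and both were positive with spike-in scaling. Their further kept probes gave -0.46 with overlap for Col18a1 and -0.42 without overlap for Col14a1.

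Proteoglycan genes held the gene with the highest difference. Fmod, which encodes fibromodulin, a keratan sulfate proteoglycan of collagen fibrils, had levels of 0.22, 0.44 and 0.58 in wild type and of 0.71, 1.26 and 0.93 in null samples. It was the only one of the 42 genes in which every null array lay above every wild-type array, with a difference of 0.55 (SE 0.19, a 1.47-fold higher mean, limma adjusted p = 0.161). Dcn, which encodes decorin, had 9.31, 9.56 and 9.13 in wild type and 8.64, 8.25 and 9.24 in null samples. Null samples 1 and 2 lay below all wild-type arrays and null sample 3 inside their range, with a difference of -0.63 (SE 0.27, limma adjusted p = 0.232) that was -0.40 without null sample 2. Bgn, which encodes the related biglycan, had 2.53, 2.58 and 2.18 in wild type and 1.70, 1.65 and 2.36 in null samples. The same array, null sample 3, lay inside the wild-type range, and the difference was -0.53 (SE 0.24, limma adjusted p = 0.241). Lumican (Lum) and osteoglycin (Ogn) followed with -0.34 and -0.19, again with null sample 3 highest among null arrays, and Ogn was positive with spike-in scaling. Vcan, which encodes the large proteoglycan versican, differed by 0.08 (SE 0.40), and the null arrays ran from 0.50 to 2.10.

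Matricellular genes held the 2 lowest differences of all 42 with the settings used here, although that of Tnc moved with the background correction. Tnxb encodes tenascin X, a glycoprotein that spaces and stabilises collagen fibrils, and its levels were 3.10, 3.31 and 3.70 in wild type and 2.29, 2.36 and 2.12 in null samples. The lowest wild-type array lay 0.74 above the highest null array. Its difference was -1.11 (SE 0.19, a 2.16-fold lower mean), and its limma adjusted p of 0.0578 was the lowest of the matrix genes. Tnc encodes tenascin C, a glycoprotein of wound and tumour stroma, and its levels were -2.07, -1.95 and -2.53 in wild type and -3.97, -3.33 and -3.29 in null samples. The groups did not overlap, and the difference was -1.35 (SE 0.25, a 2.54-fold lower mean, limma adjusted p = 0.0654). It was -0.53 with normexp background correction and -0.52 with the values of the authors' deposited table, where it was not among the lowest. A further Tnc probe gave -1.09 with overlapping groups. Postn, which encodes periostin, had 4.02, 4.10 and 3.81 in wild type and 4.01, 3.77 and 3.78 in null samples, a difference of -0.12 (SE 0.15, limma adjusted p = 0.668) that was 0.17 with spike-in scaling and -0.20 to -0.0579 with 1 array left out. Dpt, which encodes dermatopontin, was as high in null sample 3 (4.13) as in wild-type sample 1 (4.14) and lay at 2.94 and 2.93 in null samples 1 and 2. Sparc, which encodes osteonectin, differed by 0.08 (SE 0.15, 95% interval -0.28 to 0.44), and quantile normalization turned its sign. Tnxb was past an adjusted p of 0.05 in 5 of 17 alternative settings and Tnc in 3.

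Elastic fibre genes had negative differences in 6 of 7. Fbln2, which encodes fibulin 2, had levels of 4.32, 5.45 and 5.31 in wild type and of 4.13, 4.08 and 4.05 in null samples. The null arrays lay within 0.09 of each other, and wild-type sample 1 lay nearer to them than to the other wild-type arrays. The difference was -0.94 (SE 0.30, a 1.92-fold lower mean, limma adjusted p = 0.144). Fbln1, which encodes fibulin 1, had 2.55, 3.09 and 3.07 in wild type and 1.82, 1.85 and 2.56 in null samples. Null sample 3 and wild-type sample 1 met at the same level, and the difference was -0.83 (SE 0.26, limma adjusted p = 0.141). Fbn1, which encodes fibrillin 1, the core of microfibrils, had 4.01, 3.04 and 3.05 in wild type and 2.91, 2.72 and 2.55 in null samples. The groups did not overlap, although wild-type sample 1 stood well above the others, and the difference was -0.64 (SE 0.29, limma adjusted p = 0.246). Without wild-type sample 1 it was -0.32. Eln (elastin) and Mfap5, a microfibril protein, differed by -0.53 and -0.49, Fbln5 by -0.30 and Fbn2 by 0.22, all with overlap.

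For 3 of 3 crosslinking oxidase genes every null array lay below every wild-type array, against 12.0% of all entries. Loxl2 had levels of 3.33, 2.96 and 3.53 in wild type and of 2.30, 2.36 and 2.20 in null samples. Its difference was -0.99 (SE 0.18, a 1.98-fold lower mean, limma adjusted p = 0.0653), and it was past an adjusted p of 0.05 in 5 of 17 alternative settings. Loxl1, which acts on elastin, had 4.99, 4.33 and 4.56 in wild type and 4.14, 4.07 and 4.21 in null samples, a difference of -0.49 (SE 0.20, limma adjusted p = 0.207). Lox had -0.49, -0.82 and -0.996 in wild type and -1.21, -1.30 and -1.03 in null samples, a difference of -0.41 (SE 0.18, limma adjusted p = 0.231). Without wild-type sample 1 the differences were -0.31 for Loxl1 and -0.27 for Lox. The gap between the groups was 0.04 for Lox and 0.12 for Loxl1, against 0.60 for Loxl2. Of the stromal cell markers, Pdgfra, the receptor of platelet-derived growth factor on fibroblasts, had 2.34, 2.46 and 2.02 in wild type and 1.92, 1.52 and 1.92 in null samples, a difference of -0.49 (SE 0.19). Pi16, a marker of a fibroblast subset around vessels, had 7.29, 7.26 and 7.12 in wild type and 6.35, 5.94 and 7.44 in null samples. For Pi16 null sample 3 was the highest of all 6 arrays, and the difference was -0.65 (SE 0.37, limma adjusted p = 0.340). Without null sample 3 the Pi16 difference was -1.08 with a limma adjusted p of 0.0445, the only matrix gene called in that setting. Without null sample 2 it was -0.33 (limma adjusted p = 0.622).

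**Figure D2:**
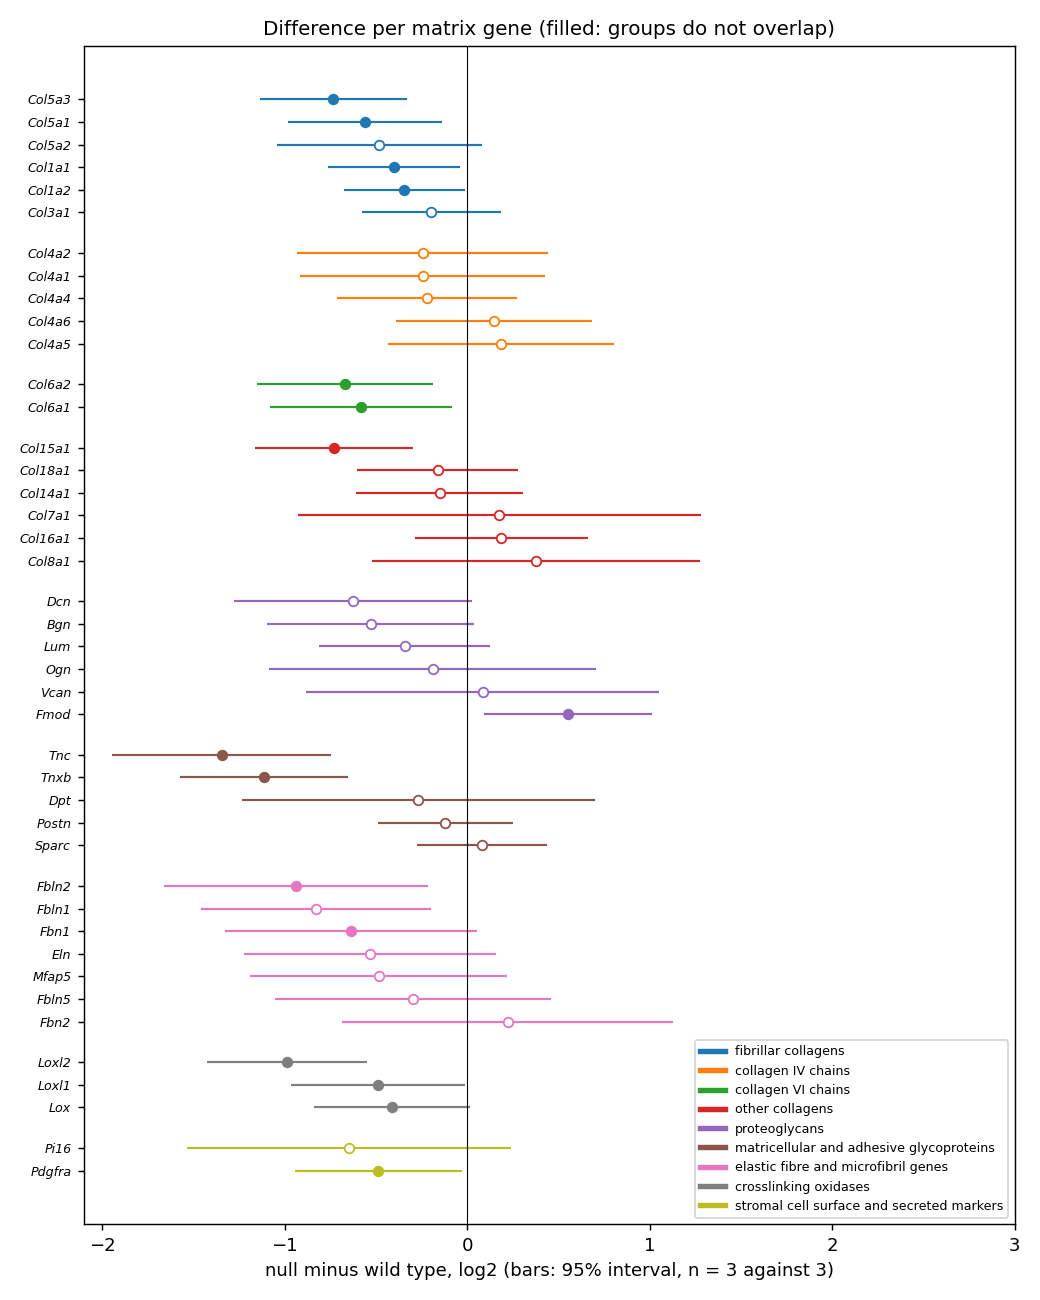
Null minus wild type (log2) for the 42 matrix genes with 95% intervals from the limma fit over all entries, coloured by role; filled points mark genes whose groups do not overlap. Tnc, Tnxb, Loxl2 and Fbln2 lie farthest left and Fmod farthest right, and the intervals of collagen IV genes all span 0.

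Null samples 1, 2 and 3 lay below the whole wild-type range for 26, 28 and 26 of the 42 genes and above it for 7, 7 and 6. The median deviation of the 42 genes, each from its wild-type mean, was -0.38, -0.57 and -0.32. Null sample 2 was the lowest of the 6 arrays for 20 genes and null sample 3 for 14. The genes above the wild-type range in null sample 3 were Col8a1, Fmod, Ogn, Sparc, Fbln5 and Pi16. In null sample 2 they were Col4a1, Col7a1, Col16a1, Col18a1, Fmod, Vcan and Fbn2. Within groups the median SD over 3 arrays was 0.25 in wild type and 0.30 in null samples, and the SD was larger in null samples for 29 of 42 genes.

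Marker lists of the cells that could hold these transcripts were read on the same arrays. They did not all follow the matrix genes, and their part in the results was not tested. On null arrays 1, 2 and 3 the median deviation was -0.24, -0.80 and 0.03 for endothelial markers and 0.35, 0.73 and 0.41 for basal epithelial markers. Fibroblast markers outside the set had a negative difference in 14 of 14 genes, with a median of -0.59, and the median deviation of the list was -0.58, -0.94 and -0.12 on null arrays 1, 2 and 3. Their summed linear level, in units of the 75th percentile, was 889.6 to 1078 in wild type and 492.1 to 1002 in null samples. Tcf21 of that list was not tested. Each summed level given here is weighted towards the brightest probes of its list, such as Fabp4 among adipocyte and Krt18 among luminal markers. It is no measure of the number of cells. Proteoglycan genes had median deviations of -0.41, -0.68 and -0.04 on null arrays 1, 2 and 3. Fibrillar collagens stood at -0.35, -0.50 and -0.43 and crosslinking oxidases at -0.49, -0.56 and -0.42, so that the medians of null sample 3 stayed low in these groups. Single fibroblast markers deviated by -0.85 (Pdgfrb) to 0.41 (Ly6c1) in null sample 3, and single proteoglycan genes by -0.72 (Vcan) to 0.60 (Ogn). Endothelial markers were negative in 12 of 12 (median -0.38, summed level 139.1 to 196.2 in wild type and 89.9 to 169.7 in null samples), and pericyte and smooth muscle markers in 6 of 8 (median -0.31, summed level 43.0 to 55.0 and 37.9 to 55.7). Schwann cell markers, which sit in nerve sheaths rich in collagen, were negative in 7 of 8 (median -0.82, summed level 61.7 to 82.8 and 36.7 to 58.4). Macrophage markers were negative in 8 of 9 (median -0.52, summed level 96.4 to 145.7 and 57.9 to 98.4) and lymphocyte markers in 12 of 12 (median -2.43, summed level 37.5 to 62.1 and 13.4 to 27.3). Adipocyte markers were positive in 5 of 7 (median 0.24, summed level 282.3 to 391.9 and 285.1 to 482.9, with Lep not tested). Basal epithelial markers were positive in 9 of 10, with a median of 0.51, and their summed level was 308.6 to 540.3 in wild type and 597.3 to 732.2 in null samples. Luminal markers were negative in 7 of 12, with a median of -0.07, and summed to 2022 to 2130 in wild type and 1869 to 2471 in null samples. No gene of these lists passed an adjusted p of 0.05 by limma. The median of basal markers was lowest in wild-type sample 1, the sample with the lowest wild-type levels of Col4a1, Col4a2 and Col7a1. In null sample 3, where those 3 genes were lowest, it was 0.41, with single basal markers from -0.29 (Trp63) to 1.44 (Oxtr). Whether basal cell content bears on those 3 genes was not tested.

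**Figure D3:**
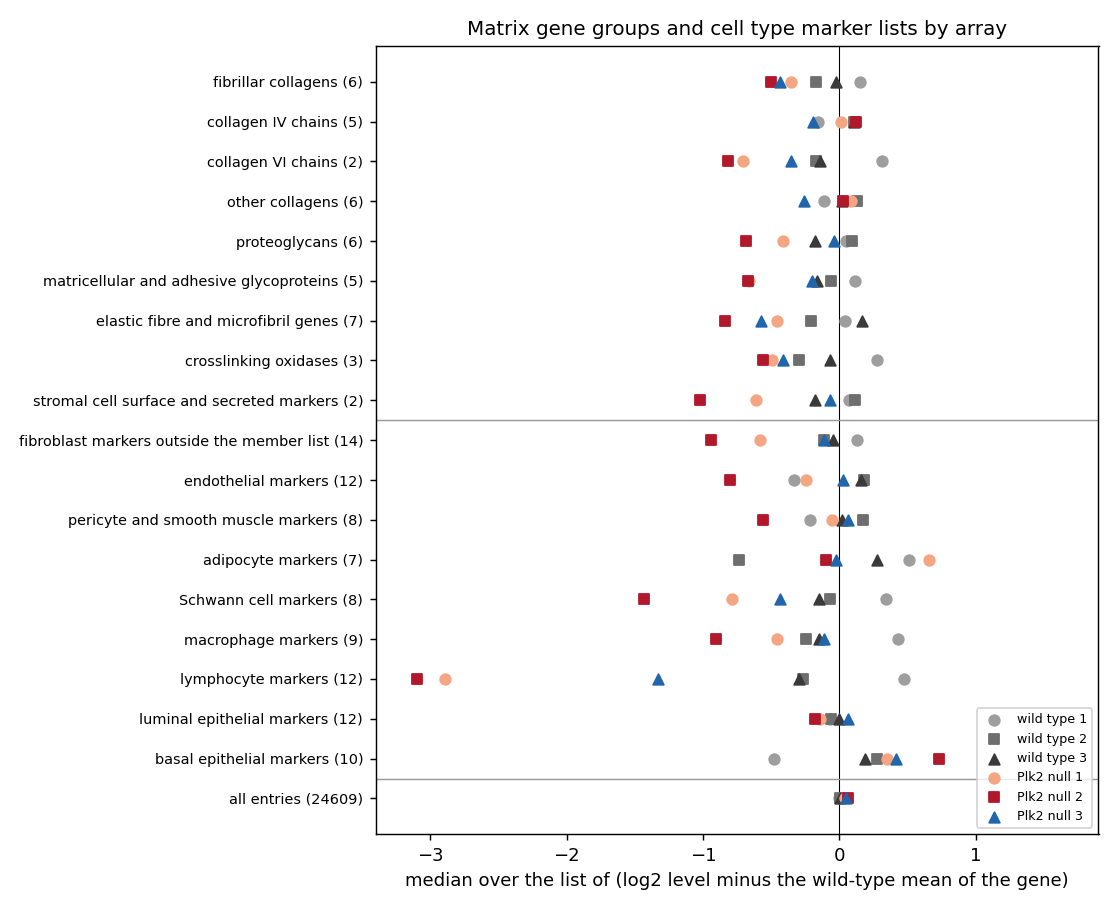
Median distance from the wild-type mean (log2) on each array for the 9 groups of matrix genes (top), 9 marker lists (middle) and all entries (bottom), with the number of genes tested in brackets. By these medians null sample 3 lies near wild type for fibroblast markers and proteoglycans, whose single genes lie on both sides of the wild-type mean. For fibrillar collagens and crosslinking oxidases its median lies with those of the other null arrays.

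Other genes of matrix assembly, 91 in all and 83 tested, had a negative difference in 63 and a median of -0.42. None passed an adjusted p of 0.05 by limma, while 24 (28.9%) were lower and 4 higher at an unadjusted p under 0.05, against 9.54% and 13.5% of all entries. For 23 of the 83 (27.7%) every null array lay below every wild-type array, against 12.0% of all entries. Genes of collagen modification and secretion were negative in 12 of 18, with 3 (16.7%) lower and 1 higher at an unadjusted p under 0.05, against the same 9.54% and 13.5%. Creb3l1, a transcription factor of collagen-secreting cells, differed by -0.78 (SE 0.15, limma adjusted p = 0.0661). P4ha1, a catalytic subunit of the prolyl hydroxylase that stabilises the triple helix, differed by -0.89 (SE 0.21, limma adjusted p = 0.0946). Procollagen processing genes were negative in 6 of 7, with Adamts14, which removes the amino propeptide, at -0.72 (SE 0.19) and the protease gene Tll1 at -0.67 (SE 0.26). Collagens outside the set were negative in 7 and positive in 8 of 15, with a median of 0.16. At an unadjusted p under 0.05, 3 of the 15 were lower and 2 higher, against 9.54% and 13.5% of all entries. Col13a1, a transmembrane collagen, differed by -0.91 (SE 0.20) and Col26a1 by -0.96 (SE 0.23). The differences farthest from 0 in this list were positive, at 1.48 (SE 0.65) for Col9a1 with overlap and 1.15 (SE 0.33) for Col9a3, both chains of a cartilage collagen. Col9a3 and Col8a2, at 0.64 (SE 0.21), were the 2 of 15 genes with every null array above every wild-type array, against 19.6% of all entries. Col9a3 was well above background on only 2 of 3 wild-type arrays, with levels of -4.26, -5.04 and -4.11 in wild type. Col9a1, Col9a3 and Col8a2 were named after their values were seen.

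Further matrix proteoglycans and glycoproteins were negative in 29 of 34, with a median of -0.54 and 12 (35.3%) lower and 1 higher at an unadjusted p under 0.05, against 9.54% and 13.5% of all entries. Thbs2, which encodes the matricellular thrombospondin 2, had levels of 3.00, 2.90 and 2.81 in wild type and of 1.58, 2.01 and 1.84 in null samples. Its difference of -1.10 (SE 0.16, a 2.14-fold lower mean) had a limma adjusted p of 0.0532, and Emilin1, an elastic fibre glycoprotein, differed by -0.92 (SE 0.15, limma adjusted p = 0.0539). Both had null arrays below all wild-type arrays. Genes of collagen receptors and uptake were negative in 9 of 9, with 3 (33.3%) lower at an unadjusted p under 0.05, against 9.54%. Mrc2, an endocytic collagen receptor, differed by -0.68 (SE 0.13, limma adjusted p = 0.0723), and Ddr2, a receptor kinase for fibrillar collagen, by -0.76 (SE 0.19, limma adjusted p = 0.0959).

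More than 1 probe was kept for 14 of the matrix genes, which gave 16 further probes. The sign was that of the probe used for 15 of the 16. The further probes of Loxl2 gave -0.73 and -0.64, that of Loxl1 -0.58, that of Lox -0.34 and that of Fbln1 -0.71. Those of Col16a1 gave 0.13 and 0.20, that of Col4a6 0.23 and that of Vcan 0.07. Col4a4 gave -0.70 by its further kept probe, which was well above background on 1 of 3 null arrays, against -0.22. Sparc was the exception, with -1.28 by a probe whose levels ran from -2.36 to -0.11 in wild type and from -3.38 to -0.68 in null samples, against 0.08 by the probe used.

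**Figure D4:**
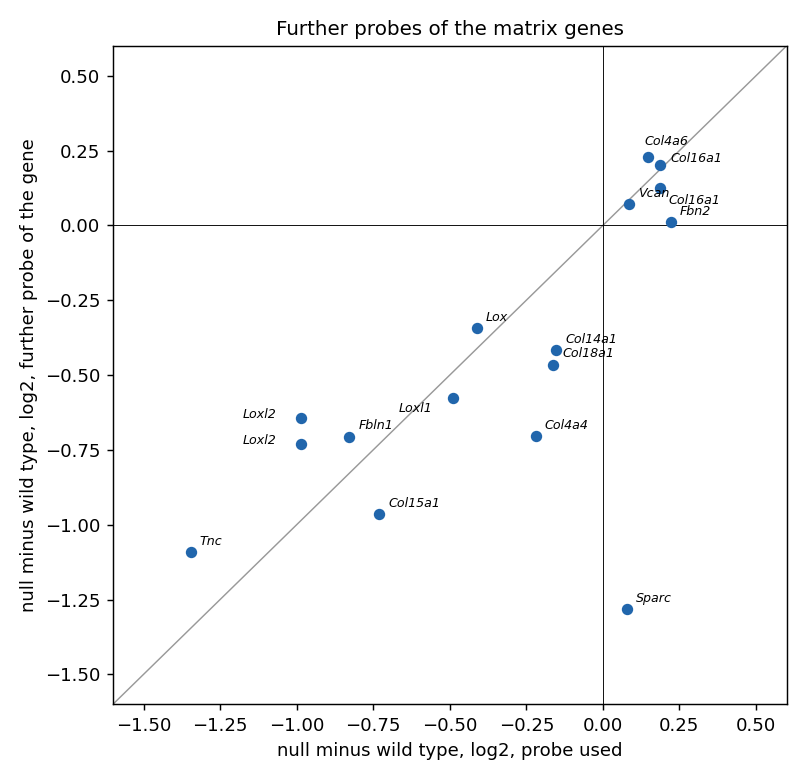
Null minus wild type (log2) by each of the 16 further kept probes against the probe used for the same gene, with the line of equality in grey. Points lie where both values have 1 sign except Sparc, at 0.08 and -1.28.

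In the authors' deposited table, 7 of the 42 genes passed both of its thresholds, an unadjusted p of 0.01 and a fold of 1.4, against 2.93% of the entries tested here. In the authors' deposited table the signed folds of these, null over wild type, were -2.27 for Tnxb, -2.01 for Loxl2, -1.69 for Col6a2, -1.52 for Col1a2, -1.43 for Tnc, 1.44 for Fmod and, for Col5a1, -1.555. Its unadjusted p-values for the 7 genes ran from 0.000635 (Col1a2) to 0.0099 (Tnc) in the authors' deposited table.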

How the data were processed

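Total RNA, isolated with Trizol, was made into Cy3-labelled target for 1-colour arrays, per the labels' protocols. The deposited intensity values are processed signals from Agilent Feature Extraction 11.0.1.1 on array design 028005, background corrected but not normalized between arrays, per the file headers. The authors' deposited table adds an unadjusted p-value, a linear ratio (wild type divided by null), a signed fold treated as a score, and normalized intensity columns. The sources used here do not say how it was normalized.

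The 75th percentile of log2 signal, taken over the 59305 gene spots, was subtracted on each array. Control spots and 1119 gene spots flagged as outliers were left out, no spot was saturated, and spots of a probe were averaged. Accessions matched RefSeq names (GRCm38.p6, used for names and promoter windows only) for 26582 of 55681 probes. A probe was kept if 3 or more of its 6 arrays had it well above background, with the brightest probe per gene. Differences were tested in R 4.3.3 with limma 3.58.1 (functions lmFit and eBayes), Benjamini-Hochberg adjusted over 24609 entries. Only this fit, and not the steps before it, was tried on simulated data. Alternatives changed the background correction, scaling, filter, probe rule, moderation, array weights, replicate block, source of values and each array in turn. Values in every sample are given for the 3 genes of each role group with the smallest p, and for others where a pattern named them after their values were seen. The genes and lists were chosen with earlier results of these data known.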

Additional observations from a re-analysis of the deposited data

How the results depend on the processing

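Over 17 alternatives, the count of all entries past an adjusted p of 0.05, 139 with the settings of the report, was 1232 with normexp background correction of the median signal, 346 with median centring, 377 with spike-in centring, 380 with a filter on all 6 arrays, 31 with no filter, 847 with a trend and robust prior, 1475 with array weights, 756 with the deposited table's values, and 7 to 704 with 1 array left out. With the replicate number as a block it was 8, and no matrix gene was called. The split of calls into higher and lower was 56 and 83 in the report, 41 and 69 with quantile normalization, 179 and 167 with median centring and 251 and 126 with spike-in centring. The numbers do not pair the samples: same-numbered arrays correlated at -0.119, 0.0377 and -0.018 in their deviations from the group means. No sample correlated best with the sample of its own number. The cause of these changes was not tested.

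The count of matrix genes called was 0 in the report. With normexp it was 6, where 1232 of 24609 entries were called in all. It was 3 with the filter on all arrays (380 of 21517 entries) and 4 with the trend and robust prior (847 of 24609). Array weights gave 4 (1475 of 24609 entries) and the deposited table's values 5 (756 of 24609). With 1 array left out it was 0 to 1 (7 to 704 of 24609 entries). The count lower at an unadjusted p under 0.05 was 9 with median centring, 3 with spike-in centring, 22 with the deposited table's values and 8 to 20 with 1 array left out. The shares of all entries in these settings were 8.18%, 3.5%, 10.8% and 6.38% to 11.9%. The median difference was -0.086 with spike-in centring and -0.50 to -0.32 with 1 array left out. Spike-in centring gave 0.0446 for Col4a1, 0.0433 for Col4a2, 0.0683 for Col4a4 and 0.17 for Postn. Leaving out each array in turn gave -0.427 to 0.0698 for Col4a1 and -0.4265 to 0.0559 for Col4a2, the highest both without null sample 3. Of 425 comparisons of a named gene with an alternative, 397 kept sign and side of the threshold, 22 passed it and 6 turned sign. All 42 genes were well above background on every array, and with 3 arrays a group the median 95% interval reached 0.52 to either side of a difference.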
